A study of Mus musculus with 8 samples.

Results

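The IκB inhibitor family comprises the proteins that bind NF-κB dimers through ankyrin repeats. Its genes were taken from the count table by symbol: Nfkbia, Nfkbib, Nfkbie, Nfkbiz, Nfkbid and Bcl3. All 6 were found among 24411 gene names, and all 6 passed the filter on low counts that kept 14679 genes for testing. Their RNA was measured by poly(A) sequencing in whole aortas of 3 Control mice and 5 caIKK2EC mice, 1 library per mouse. All 8 mice lack apolipoprotein E (ApoE-/-), carry 2 copies of a transgene for constitutively active IKK2 with EGFP behind a loxP-flanked STOP cassette (caIKK2+/+), received tamoxifen for 5 days at 1 mg per 20 g of mouse, and ate a Western-type diet for 12 weeks. The caIKK2EC mice also carry BMX-CreERT2 (+/-), a Cre recombinase that tamoxifen activates in arterial endothelial cells. The Control mice are BMX-CreERT2 (-/-) littermates, in which the STOP cassette stays in place. Activation was thus limited by design to a minor cell population of the tissue, while RNA came from the whole vessel wall. Control 1 and 2 and caIKK2EC 1 and 3 were aged 18 weeks and the others 19 weeks. Control 3 was male and the other 7 mice female. The sources used here do not state whether these mice represent the early or the late activation that the series describes. Total counts ran from 23461655 to 30808502 per library.

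In resting cells the classical inhibitors IκBα (Nfkbia), IκBβ (Nfkbib) and IκBε (Nfkbie) hold NF-κB in the cytoplasm. IKK2 phosphorylates them, a ubiquitin ligase then marks them for degradation, and the released NF-κB enters the nucleus, where IκBα and IκBε are among the genes it switches on, closing a negative feedback loop. The atypical members IκBζ (Nfkbiz), IκBNS (Nfkbid) and Bcl-3 (Bcl3) act in the nucleus on DNA-bound NF-κB and can raise or lower the transcription of chosen targets. In atherosclerotic arteries NF-κB is active in endothelium, in smooth muscle and in infiltrating leukocytes.

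The promoter sequences are shown because the members share a regulator, NF-κB, which binds the κB motif. RefSeq windows on GRCm38.p6, from 250 bases before to 50 bases after an annotated start, were available for 5 of the 6 members, and Nfkbiz is named only. Each sequence runs 5′ to 3′ in the direction of its gene, and capitals mark matches to the 10-letter κB consensus on either strand, with overlapping matches merged. For Nfkbid, which has 3 annotated starts, the middle one is shown.
Nfkbia (chr12:55492598-55492897, minus strand): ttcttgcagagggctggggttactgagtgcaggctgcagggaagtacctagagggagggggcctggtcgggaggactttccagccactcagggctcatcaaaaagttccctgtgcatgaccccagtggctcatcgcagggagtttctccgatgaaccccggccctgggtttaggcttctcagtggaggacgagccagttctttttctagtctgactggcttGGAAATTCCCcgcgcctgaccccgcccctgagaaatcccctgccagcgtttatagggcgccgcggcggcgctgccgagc
Nfkbie (chr17:45555450-45555749, plus strand): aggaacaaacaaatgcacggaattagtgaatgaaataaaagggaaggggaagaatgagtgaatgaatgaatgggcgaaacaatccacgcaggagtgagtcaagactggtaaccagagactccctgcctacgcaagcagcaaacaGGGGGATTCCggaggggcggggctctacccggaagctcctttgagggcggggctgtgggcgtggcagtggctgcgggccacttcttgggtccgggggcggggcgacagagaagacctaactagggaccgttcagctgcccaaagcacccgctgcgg
Bcl3 (chr7:19822706-19823005, minus strand): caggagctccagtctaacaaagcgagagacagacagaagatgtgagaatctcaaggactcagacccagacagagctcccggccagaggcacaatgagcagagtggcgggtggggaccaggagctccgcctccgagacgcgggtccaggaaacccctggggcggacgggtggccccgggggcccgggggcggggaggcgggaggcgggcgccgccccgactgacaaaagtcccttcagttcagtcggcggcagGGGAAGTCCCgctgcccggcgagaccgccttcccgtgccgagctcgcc
Nfkbid (chr7:30422156-30422455, plus strand): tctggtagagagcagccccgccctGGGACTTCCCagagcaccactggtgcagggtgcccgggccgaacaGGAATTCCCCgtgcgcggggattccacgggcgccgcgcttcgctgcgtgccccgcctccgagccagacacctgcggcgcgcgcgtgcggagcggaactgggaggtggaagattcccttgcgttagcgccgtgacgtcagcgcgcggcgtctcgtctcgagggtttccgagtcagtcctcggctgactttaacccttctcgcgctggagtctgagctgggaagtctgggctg
Nfkbib (chr7:28766595-28766894, minus strand): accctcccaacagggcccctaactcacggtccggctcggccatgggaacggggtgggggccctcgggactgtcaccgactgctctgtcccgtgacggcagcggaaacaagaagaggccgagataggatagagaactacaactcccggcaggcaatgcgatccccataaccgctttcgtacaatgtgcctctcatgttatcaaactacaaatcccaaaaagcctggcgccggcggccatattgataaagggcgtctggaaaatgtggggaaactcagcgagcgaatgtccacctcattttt
The windows of Nfkbia, Nfkbie and Bcl3 hold 1 match each. That of Nfkbia begins 29 bases upstream of the start, that of Nfkbie 106 bases upstream, and that of Bcl3 at base 3 of the transcript. The middle Nfkbid window holds 2 matches, at 226 and 181 bases upstream, and its other windows hold 0. The Nfkbib window holds 0 matches. Among 32851 such windows of all genes, 4.51% held at least 1 match and 0.167% held 2 or more. Counted by gene over all its starts, 5.14% of 27025 genes held 1. The GC box GGGCGG, searched the same way on both strands, was present 3 times in each of the Nfkbie and Bcl3 windows, 1 time in each of the Nfkbia and middle Nfkbid windows, 0 times in that of Nfkbib, and in 35.7% of all windows. A TATAAA match was present in the Nfkbia window, on the opposite strand, and in 13.6% of all windows. The AP-1 motif TGANTCA was present 1 time in the Nfkbie window and in 7.81% of all windows. These are letter matches, not measured binding sites.

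By level, Nfkbia dominated the family. Levels are in CPM, read counts scaled to library size with the TMM factors of edgeR, and for comparison between genes they were divided by exonic length in kb. In Control aortas Nfkbia (chromosome 12, 55489410 to 55492647, minus strand, GRCm38) stood at 90.7 ± 1.75 CPM per kb (SD, n = 3). Bcl3 (chromosome 7, 19808462 to 19822770, minus strand) followed at 14.2 ± 1.59, Nfkbiz (chromosome 16, 55811375 to 55838899, minus strand) at 12.3 ± 4.13 and Nfkbib (chromosome 7, 28758251 to 28767512, minus strand) at 11.5 ± 0.485 CPM per kb. The lowest were Nfkbie (chromosome 17, 45555703 to 45563169, plus strand) at 3.94 ± 0.532 and Nfkbid (chromosome 7, 30421732 to 30428746, plus strand) at 1.77 ± 0.600 CPM per kb. The range of Nfkbiz over the 3 Controls, 7.99 to 16.2 CPM per kb, overlapped those of both its neighbours, so the place of Nfkbiz in this order is not separated beyond the spread. The ranges of Bcl3 (13.0 to 16.0) and Nfkbib (10.9 to 11.9 CPM per kb) did not overlap. The order of the 6 means was the same in caIKK2EC aortas, from Nfkbia at 123 ± 19.0 to Nfkbid at 2.85 ± 0.147 CPM per kb (SD, n = 5). All 6 genes are protein-coding. Nfkbib shares 718 bases with Ccer2 and 778 with Sirt2 on the opposite strand, and Bcl3 shares 2264 and 2073 bases with the antisense genes Gm16175 and Gm16174. The libraries keep the strand, but the sources used here do not state whether counting did, and reads from these stretches cannot be assigned with certainty.

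Setting caIKK2EC against Control addresses how constant IKK2 activity in arterial endothelium alters the aorta, here read through the RNA of the inhibitors that IKK2 acts on. All 6 members had higher mean levels in caIKK2EC aortas. The difference was 2.05-fold for Nfkbie, between 1.36-fold and 1.61-fold for Nfkbia, Nfkbiz, Bcl3 and Nfkbid, and 1.10-fold for Nfkbib. In 5 of 6 members every caIKK2EC library lay above every Control, a pattern seen in 7.01% of all genes tested. The reverse pattern held for 0 members and 3.22% of genes. The quasi-likelihood test of edgeR, with p adjusted by Benjamini-Hochberg over all 14679 genes and a threshold of 0.05, called 0 of 6 members and 0% of genes in either direction. At an unadjusted edgeR p under 0.05, 5 of 6 members were higher, against 9.66% of all genes, and 0 were lower, against 7.47%. DESeq2 called Nfkbie and Bcl3 higher, 2 of 6, against 3.91% of 16671 genes, and 0 lower, against 1.3%. The median log2 fold change of the 6 was 0.60, against -0.02 over all genes tested. In a bulk sample, a change in the number of cells of a type and a change in RNA per cell cannot be told apart.

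**Figure D1:**
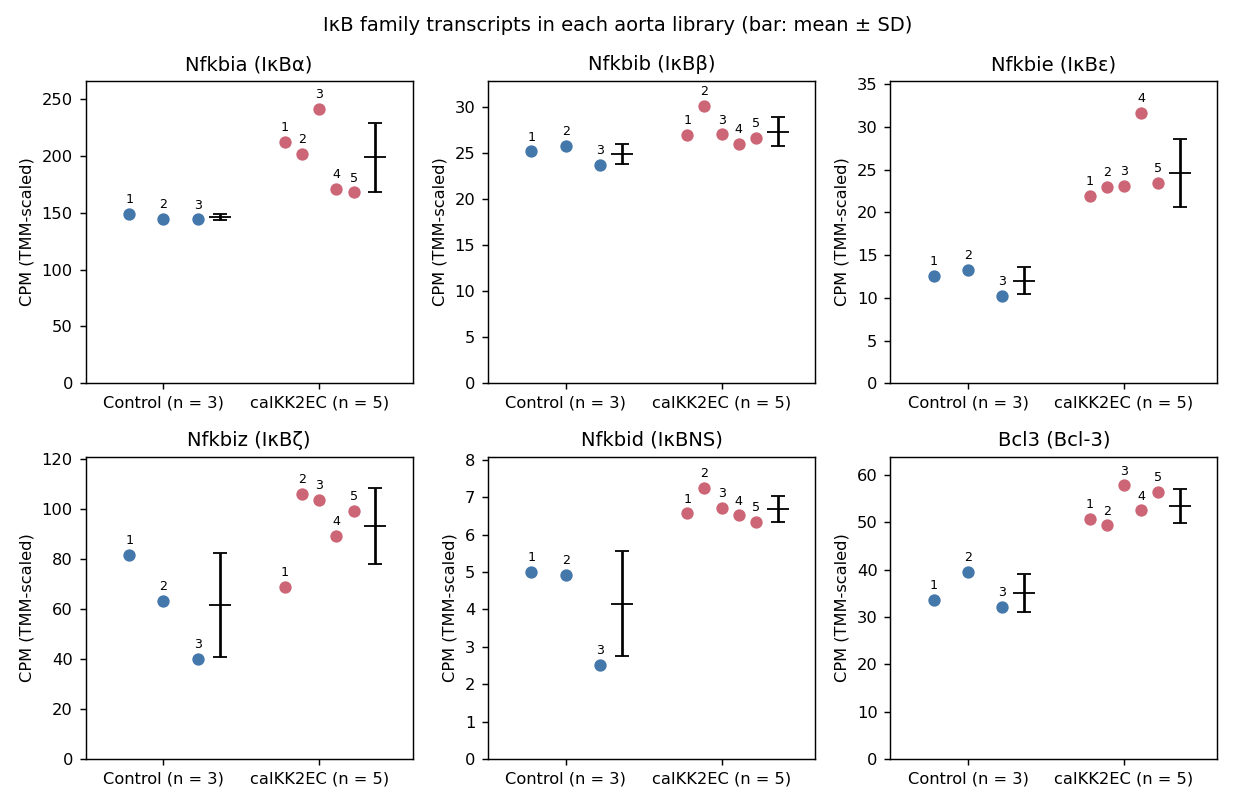
Level of each IκB family gene in CPM (y axis, from 0) in the 3 Control (blue) and 5 caIKK2EC (red) libraries, numbered by replicate, with the group mean ± SD in black. The groups overlap for Nfkbiz, where caIKK2EC 1 (68.7 CPM) lies below Control 1 (81.5 CPM), and are separate for the other 5 genes.

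Among the classical inhibitors, Nfkbie showed the widest separation. IκBε acts as a delayed, damping inhibitor of NF-κB. Its gene stood at 12.6, 13.3 and 10.2 CPM in the 3 Controls, and at 21.9, 23.0, 23.1, 31.7 and 23.4 CPM in the caIKK2EC libraries in order of replicate. No caIKK2EC library came near the Controls, and caIKK2EC 4 was the highest. The log2 fold change of Nfkbie was 1.04 (SE 0.16, edgeR adjusted p = 0.107). That adjusted p is the lowest of any gene in that test, but many genes share it, Bcl3 and Birc3 among them. The unadjusted edgeR p of Nfkbie, 8.17e-05, ranked 7 among 14679, and only 2.03% of genes had a larger log2 fold change. The exact two-sided permutation p, taken as the doubled smaller tail, was 0.0357, the smallest that 3 against 5 libraries can give in this form. DESeq2 gave an adjusted p of 8.76e-06, so Nfkbie rose by that test.

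Nfkbia encodes IκBα, the inhibitor that is degraded first and resynthesised fastest. It was at 149.2, 144.7 and 144.0 CPM in the 3 Controls and at 212.5, 201.5, 241.2, 170.6 and 167.8 CPM in the 5 caIKK2EC libraries. The Controls lay close together, and the caIKK2EC libraries were all higher but spread widely, with caIKK2EC 4 and 5 nearest to the Controls. The log2 fold change was 0.44 with an SE of 0.14, the edgeR adjusted p was 0.169 and the exact permutation p was 0.0357. In the authors' deposited table Nfkbia had an adjusted p of 0.0528 and did not pass either.

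Nfkbib encodes IκBβ, a classical inhibitor that is degraded more slowly. Its level was 25.15, 25.8 and 23.7 CPM in the 3 Controls and 26.9, 30.0, 27.0, 25.9 and 26.6 CPM in the 5 caIKK2EC libraries. The groups did not overlap, but the gap between Control 2 and caIKK2EC 4 was small (25.77 against 25.95 CPM). The log2 fold change was 0.13 (SE 0.10, edgeR adjusted p = 0.541), and 30.8% of all genes had a larger one.

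Of the atypical members, Bcl3 was the most clearly separated. Bcl-3 joins p50 and p52 homodimers on DNA and can act as a coactivator. Bcl3 was at 33.6, 39.5 and 32.1 CPM in the 3 Controls and at 50.8, 49.3, 57.8, 52.5 and 56.4 CPM in the 5 caIKK2EC libraries. The 5 caIKK2EC libraries lay close together and well above the highest Control. The log2 fold change was 0.61 with an SE of 0.11 (adjusted p = 0.107 by edgeR, and exact permutation p = 0.0357). Its unadjusted edgeR p of 0.000285 ranked 32 among 14679. By DESeq2, Bcl3 rose with an adjusted p of 0.000305.

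Nfkbiz encodes IκBζ, an inducible nuclear cofactor of secondary NF-κB targets. It was at 81.5, 63.2 and 40.1 CPM in the 3 Controls and at 68.7, 105.9, 103.5, 89.2 and 99.2 CPM in the 5 caIKK2EC libraries. The low Control was Control 3, the male, and caIKK2EC 1 lay between Control 1 and Control 2. The log2 fold change of 0.60 with an SE of 0.22 (adjusted p = 0.218 by edgeR, and exact permutation p = 0.0714) was 0.37 without Control 3 and 0.87 without Control 1.

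Nfkbid encodes IκBNS, known from lymphocyte development and from the control of cytokine genes in macrophages. It was the scarcest member, with 55 to 196 counts per library. Nfkbid was at 5.0, 4.92 and 2.52 CPM in the 3 Controls and at 6.57, 7.25, 6.70, 6.51 and 6.34 CPM in the 5 caIKK2EC libraries. The caIKK2EC libraries were nearly level with each other, and again Control 3 was low. The log2 fold change of 0.68 with an SE of 0.24 (adjusted p = 0.205 by edgeR, and exact permutation p = 0.0357) was 0.43 without Control 3.

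A digit in the column names of the deposited counts, read here as the sequencing lane, was 7 for the 3 Controls and caIKK2EC 1. It was 8 for caIKK2EC 2 to 5. The labels do not name this digit as a lane. On this reading only caIKK2EC 1 can be compared with the Controls within a lane. Within lane 7 the log2 difference of caIKK2EC 1 from the Control mean, which has no replicate check, was 0.85 for Nfkbie, 0.66 for Nfkbid, 0.54 for Nfkbia, 0.53 for Bcl3, 0.21 for Nfkbiz and 0.11 for Nfkbib. For Nfkbiz this compares with 0.74 for the lane 8 libraries, while Nfkbie stood at 1.04 and Bcl3 at 0.62 in lane 8. With lane as a covariate the log2 fold change of Nfkbiz was 0.16. Lane 8 holds no Control, so that fit also rests on caIKK2EC 1 alone against the 3 Controls. Without caIKK2EC 2, edgeR called Nfkbie (adjusted p = 0.0317) and Bcl3 (adjusted p = 0.0366) higher, against 1.57% of genes in that fit. DESeq2 on the 7 female libraries, a setting added after the data were seen, also called both, against 2.15% of genes. The DESeq2 adjusted p-values there were 0.000276 for Nfkbie and 0.00379 for Bcl3. On the same 7 libraries edgeR called neither gene (adjusted p = 0.191 for Nfkbie and 0.215 for Bcl3). Nor did edgeR call them with sex as a covariate (adjusted p = 0.189 and 0.216). Since Control 3 is the only male, that fit is in effect the same comparison and no further check. With age as a covariate edgeR called both (adjusted p = 0.0252 and 0.0261), against 2.77% of genes. Sex, age and the identity of Control 3 cannot be told apart among the Controls, since Control 3 is the only male and the only Control of 19 weeks.

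**Figure D2:**
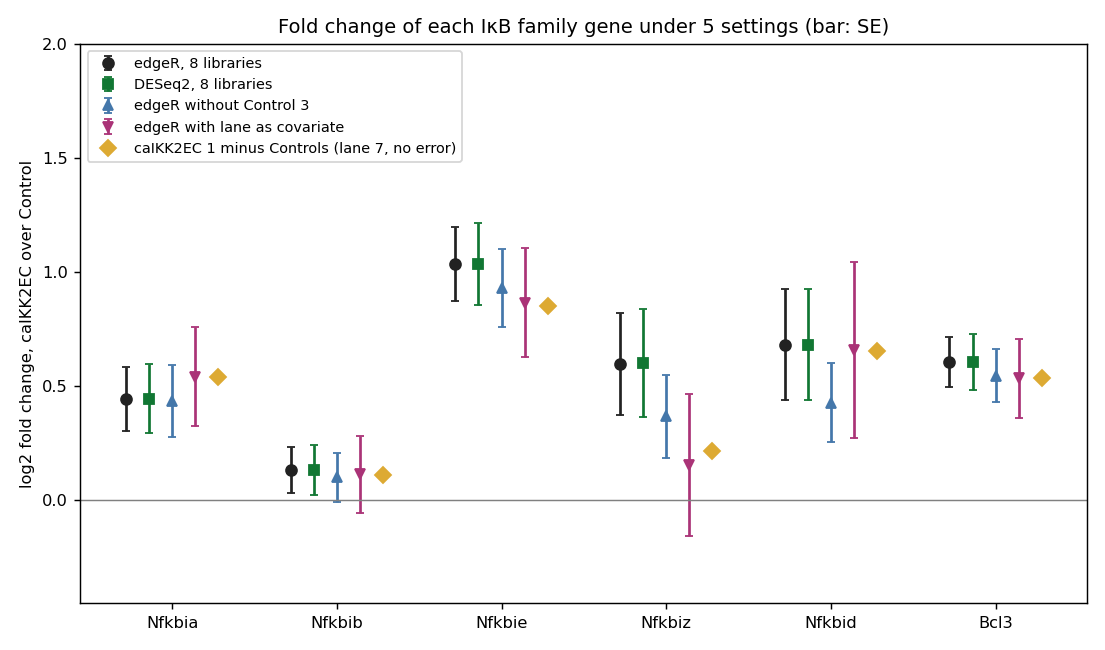
Log2 fold change of caIKK2EC over Control (y axis) for each gene under 5 settings, with bars for the SE. The caIKK2EC 1 value within lane 7 has no error. Nfkbie is at 1.04 over all libraries and 0.85 within lane 7, while Nfkbiz goes from 0.60 to 0.21.

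The ratio of 2 members within a library does not depend on scaling between libraries, and it shows whether the members differed by the same factor. Over the 15 pairs, 6 ratios separated the groups without overlap. Each had an exact two-sided permutation p of 0.0357 and a Benjamini-Hochberg adjusted p of 0.0893 over the 15. Thus 0 pairs passed a threshold of 0.05 after adjustment. The share of all gene pairs that separate in this way was not computed. Among single genes, 7.01% separated higher and 3.22% lower. All 6 ratios contain Nfkbib or Nfkbie, so they are not independent of each other. This two-sided test cannot go below 0.0357. After adjustment over 15 pairs, a pass would need most of the pairs to separate at once, so the lack of a pass decides nothing. The ratio of Nfkbie to Nfkbib counts differed most between the groups. On the log2 scale it was -1.001, -0.96 and -1.22 in the 3 Controls and -0.30, -0.38, -0.22, 0.29 and -0.18 in the 5 caIKK2EC libraries, a difference in means of 0.90. The 5 caIKK2EC values all lay above the Controls, and only in caIKK2EC 4 did Nfkbie counts exceed Nfkbib counts. Relative to Nfkbib, Nfkbid was higher by 0.62, Bcl3 by 0.48 and Nfkbia by 0.30, all 3 without overlap of the groups. The Nfkbid difference was 0.33 without Control 3. Nfkbie was also higher relative to Nfkbia, by 0.60, and relative to Bcl3, by 0.42. The ratio of Nfkbiz to Nfkbib overlapped between the groups (difference 0.51, exact permutation p = 0.0714, adjusted p = 0.153). The other 8 ratios overlapped as well, with differences from 0.03 to 0.39 in size and adjusted permutation p-values from 0.402 to 0.893.

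**Figure D3:**
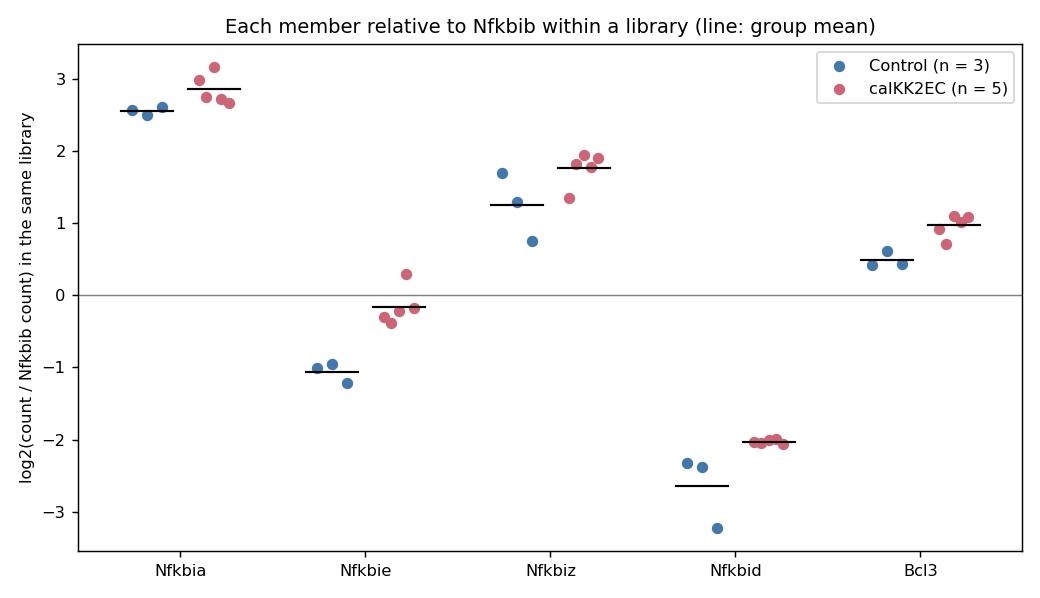
Log2 ratio of each member's count to the Nfkbib count of the same library (y axis), with lines at the group means. Nfkbie lies between -1.22 and -0.96 in 3 Controls and between -0.38 and 0.29 in 5 caIKK2EC libraries, and Nfkbiz alone overlaps between the groups.

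In shares of the family's summed CPM per kb, Nfkbia held 65.7% to 71.1% in Controls and 61.5% to 70.0% in caIKK2EC libraries, ranges that overlap. The share of Nfkbie was 2.66% to 3.19% in Controls and 3.50% to 6.12% in caIKK2EC libraries. The share of Nfkbib was 8.26% to 8.70% in Controls and 5.74% to 7.26% in caIKK2EC libraries. Neither of these last ranges overlapped.

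Other genes of the pathway were read from lists written from textbook knowledge. Of the 5 NF-κB subunits, edgeR called 0 and DESeq2 3 higher and 0 lower (against 3.91% and 1.3% of all genes), with a median log2 fold change of 0.36. Those 3 were Relb, Rel and Nfkb2. Relb, a subunit of the non-canonical arm, was at 31.6 to 36.2 CPM in Controls and 42.7 to 50.8 CPM in caIKK2EC libraries (log2 fold change 0.43, DESeq2 adjusted p = 0.0153). Nfkb2, whose precursor p100 also carries IκB-like ankyrin repeats, was at 62.9 to 67.0 and 71.4 to 87.7 CPM (0.34, DESeq2 adjusted p = 0.0442). Rel, the leukocyte-rich subunit c-Rel, was scarce and overlapped between the groups, at 0.667 to 1.38 CPM in Controls and 1.18 to 5.02 CPM in caIKK2EC libraries (1.74, DESeq2 adjusted p = 0.0113).

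Of 3 genes of the IKK complex, which phosphorylates the classical inhibitors, 0 were called by either tool. DESeq2 called 3.91% of all genes higher and 1.3% lower, so 0 calls among 3 genes is near that share. The summed level of the 3 was 154.4 to 171.7 CPM in Controls and 187.2 to 201.7 CPM in caIKK2EC libraries, higher without overlap. Of the 3 single genes, 1 was higher without overlap, Ikbkb, against 7.01% of all genes. Ikbkb, the gene for IKK2, was at 65.4 to 87.0 CPM in Controls and 91.6 to 102.5 CPM in caIKK2EC libraries (log2 fold change 0.30, edgeR adjusted p = 0.237). The sources used here do not state whether transgene reads were assigned to it. The log2 fold changes of Chuk (IKK1) and Ikbkg (NEMO) were 0.15 and 0.17. The step after phosphorylation showed no called gene either. Of 7 genes for the ubiquitin ligase that marks phosphorylated IκB and for the κB-Ras proteins that bind IκBs, 0 were called by edgeR or DESeq2. That is again near the DESeq2 shares over all genes. The summed level of these 7 genes was 489.7 to 498.4 CPM in Controls and 460.5 to 475.4 CPM in caIKK2EC libraries, lower without overlap. Of the 7 single genes, however, 0 were lower without overlap, against 3.22% of all genes. The median log2 fold change of the 7 was -0.10, with a range of -0.24 to 0.06. The ligase subunit genes Btrc and Rbx1 were at -0.24 and -0.17, and the κB-Ras gene Nkiras1 at -0.21.

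A list of 10 other genes tied to feedback on NF-κB, among them ubiquitin ligase and adaptor genes, was read next. Whether NF-κB induces each of these genes, or is restrained by it, was not tested. Of 10, edgeR called 0, and DESeq2 called 4 higher and 0 lower, against 3.91% and 1.3% of all genes. In 4 of them all caIKK2EC libraries lay above the Controls, against 7.01% of all genes. Birc3, an inhibitor of apoptosis and ubiquitin ligase, was at 18.3 to 24.7 CPM in Controls and 35.0 to 47.1 CPM in caIKK2EC libraries. Tnfaip3, the deubiquitinase A20, was at 29.1 to 46.5 and 57.6 to 87.7 CPM. Tnip1, a partner of A20, was at 37.9 to 53.0 and 60.8 to 67.8 CPM. The log2 fold changes were 0.95, 0.96 and 0.54, and by DESeq2 these 3 genes rose (adjusted p-values of 2.36e-06, 0.000319 and 0.00471).

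Genes known to need IκBζ for induction were read beside Nfkbiz. Of 9, 6 passed the filter on low counts, and Ccl20 and Defb4 had 0 counts in all libraries. Of the 6, edgeR called 0 and DESeq2 called 2 higher (against 3.91% of all genes), Lcn2 and Il12b, and the median log2 fold change was 1.10. Since genes that passed through the higher group alone can enter such a median, it is a description only. Lcn2, the iron-binding protein lipocalin 2, did not follow the order of Nfkbiz over the libraries. Control 3 had the lowest Nfkbiz level of all 8 but the highest Lcn2 level among Controls, 106 CPM. In caIKK2EC 1, with the lowest Nfkbiz level of its group, Lcn2 was at 180.5 CPM, close to the highest value of 181.9 CPM in caIKK2EC 2. Il6 was at 5.47 to 13.0 CPM in Controls and 7.69 to 25.4 CPM in caIKK2EC libraries, without a call (edgeR adjusted p = 0.279). Il12b was scarce, at 0.18 to 0.78 CPM in Controls and 0.88 to 1.75 CPM in caIKK2EC libraries (DESeq2 adjusted p = 0.0471).

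Immediate early genes, which stress or handling of a tissue can induce rapidly, were read beside the family. Of 17, 0 were called by edgeR or DESeq2 (against 3.91% higher and 1.3% lower of all genes by DESeq2). The median log2 fold change of the 17 was 0.03 and the range -0.51 to 0.72. Their summed level was 2530 to 3317 CPM in Controls and 2146 to 3490 CPM in caIKK2EC libraries, which overlap. It was lowest in caIKK2EC 1 and highest in caIKK2EC 2. The members with the smallest p in this list were Myc (0.72, edgeR adjusted p = 0.176), Nr4a1 (-0.51, adjusted p = 0.341) and Egr2 (0.49, adjusted p = 0.405).

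Markers of several cell types differed between the groups. The summed level of 10 macrophage markers was 2256 to 7295 CPM in Controls and 8822 to 12470 CPM in caIKK2EC libraries, without overlap. Of the 10 single markers, 9 were higher without overlap, against 7.01% of all genes. The largest part of this sum was Lyz2, at a mean of 3000 CPM in Controls (541.1 to 4399) and 5733 CPM in caIKK2EC libraries (edgeR adjusted p = 0.403). Control 3 had the lowest macrophage sum, 2256 CPM, and also the highest smooth muscle sum, 38470 CPM. The smooth muscle sum was 19120 and 22710 CPM in Control 1 and 2 and 10540 to 21820 CPM in caIKK2EC libraries. Sums of dendritic cell (215.5 to 296.4 and 346.6 to 471.4 CPM), B cell (27.4 to 58.9 and 59.1 to 77.3 CPM) and neutrophil markers (25.6 to 43.3 and 52.2 to 68.4 CPM) did not overlap either, but each rests mainly on 1 or 2 genes. The dendritic cell sum was mostly Itgax (228.9 CPM in Controls), and 4 of its 7 markers were higher without overlap. The neutrophil sum was mostly Csf3r and Mmp8 (18.5 and 8.37 CPM in Controls). Of the 6 neutrophil markers tested, 2 were higher without overlap and 1, Retnlg, was lower without overlap (log2 fold change -1.37), while S100a8 and S100a9 overlapped (0.25 and 0.30). The neutrophil marker Ly6g was not found among the gene names counted. Most of the B cell sum was Cd22 (34.6 CPM in Controls). The median log2 fold change of the B cell markers was -0.58, and the defining marker Pax5 was near 0, at a mean of 0.827 CPM in Controls and 0.275 CPM in caIKK2EC libraries. T cell sums overlapped (72.0 to 150.5 and 121.7 to 176.3 CPM), with Thy1 and Cd4 the largest parts (59.3 and 35.8 CPM in Controls). Markers of endothelium, where the Cre is active, summed to 1570 to 3160 CPM in Controls and 2624 to 3294 CPM in caIKK2EC libraries, overlapping. Arterial endothelial markers summed to 264.1 to 430.7 and 383.7 to 503.0 CPM, also overlapping. Whole-aorta libraries do not show which of these cell types the RNA of the IκB genes came from. The part of cell composition in the differences of the IκB genes was not tested.

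**Figure D4:**
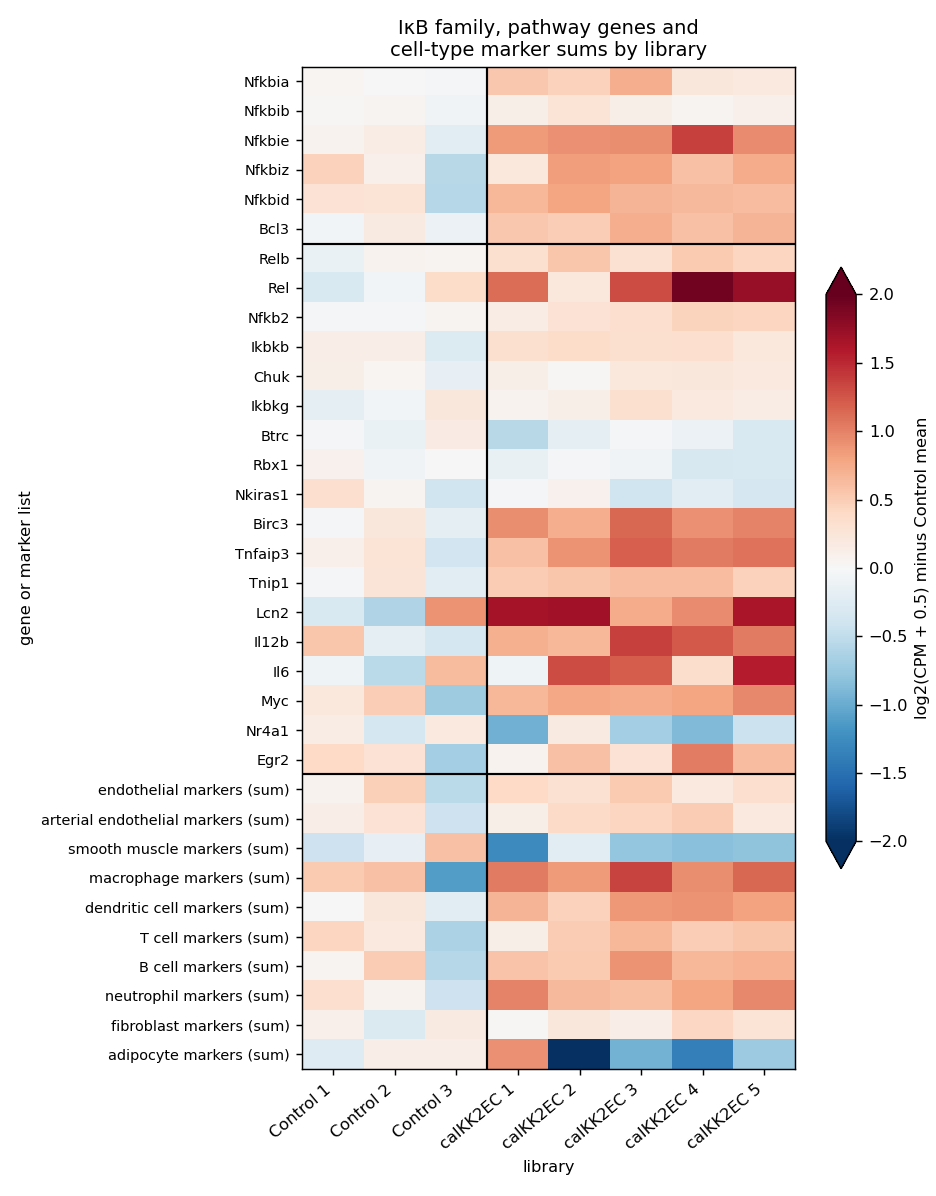
Log2(CPM + 0.5) of each gene, or of the summed markers of a cell type, minus the mean of the 3 Controls (colour, red higher), in the 8 libraries (columns). The colour scale ends at 2 in each direction. Nfkbie and Bcl3 are red in all 5 caIKK2EC libraries, Nfkbib is nearly white throughout, and Control 3 is blue for Nfkbiz, Nfkbid and the macrophage sum.

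Likeness to each member was measured by Pearson's r of log2 CPM over the 8 libraries. Candidates were 12163 other genes with a mean log2 CPM of 1 or more. Genes with a clone-style, accession-like or pseudogene symbol, and unnamed genes, were left out of the candidates. These values describe the libraries and, as the best of many, carry no test. The gene most like Bcl3 was Birc3 (r = 0.994, and 0.982 without the 2 libraries farthest from the median of Bcl3), followed by Tceb3 (0.985) and the lymphoid transcription factor gene Ikzf1 (0.983). The genes most like Nfkbie were Rhbdf2 (0.991), the RNA sensor gene Ddx58 (0.989) and Spint1 (0.987). Those most like Nfkbid were Tpcn2 (0.991), Ikbkb (0.988) and Aoah (0.987), and Ikbkb was at 0.913 without the 2 farthest libraries. Nfkbia was most like Ssu72 (0.979), Akr1a1 (0.977) and Cyba, and Nfkbiz most like Snx7 (0.966), Srsf9 (0.965) and Ankrd42 (0.963). Nfkbib was most like Klhl35 (0.954), Batf2 (0.947) and Zbtb17 (0.936), of which Batf2 was at 0.736 without the 2 farthest libraries. The 8 points of each r include both groups and so share the difference between them.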

How the data were processed

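Counts of single reads of 50 nt from poly(A)-selected, directional libraries of 8 aortas were used as deposited. The table holds raw counts per gene symbol, with totals of 23461655 to 30808502 per library. Per the submitters' processing notes, the tools were FastQC 0.11.5, STAR 2.7.0e and DESeq2 1.22.2 on GRCm38, and the sources used here do not state the counting program or annotation. The authors' deposited comparison table gives log2 fold changes and p-values. It was used for the members only, and its values for them equal those of DESeq2 here. Columns were matched to samples by the identifier in their names, and 27 gene names that had turned into dates were kept as unnamed genes. Each library is 1 mouse, and no pair of libraries agreed within sampling noise (lowest chi-square per degree of freedom 17.61).

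Differences were tested with edgeR 4.0.16 (R 4.3.3): default filter on low counts by group, TMM, a robust quasi-likelihood fit on group alone, and p adjusted by Benjamini-Hochberg over all genes. The SE is the log2 fold change over the square root of the F statistic. DESeq2 1.42.0 ran on genes with a total count of at least 10. The 56 splits of 8 libraries into 3 and 5 gave the exact two-sided permutation tests (doubled smaller tail), on log2(CPM + 0.5) or log2 count ratios with 0.5 added. Gene positions and merged exon lengths come from GENCODE M21 on GRCm38. Procedures were tested on simulated data. The members, gene lists and tests were chosen with earlier results of these data known. From each pathway list the 3 genes with the smallest edgeR p were named, and for each member the 3 genes with the highest r. Lists of cell-type markers are given as sums. Ccl20, Defb4 and the single cell-type markers fall outside this rule and were named after their values were seen. Alternatives were another tool, normalization and filters, covariates for sex, age and lane, a replicate block, and leaving out each library.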

Additional observations from a re-analysis of the deposited data

Results flagged for a closer look

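In 3 of 34 sets of 5 caIKK2EC values examined, 1 library stood apart from the other 4 by Dixon's criterion at the 95% level. Chance gives such a library in about 5% of sets. Nfkbie was at 31.7 CPM in caIKK2EC 4 and at 21.9 to 23.4 CPM in the others, and without that library its log2 fold change was 0.95. Nfkbib was at 30.0 CPM in caIKK2EC 2 and at 25.9 to 27.0 CPM in the others, and without that library its log2 fold change was 0.10. The summed adipocyte markers were at 2640 CPM in caIKK2EC 1 and at 198 to 844 CPM in the others, against 1165 to 1536 CPM in Controls.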

How the results depend on the processing

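All 6 members kept a higher level in caIKK2EC under the 17 alternatives with a test. Nfkbia, Nfkbib, Nfkbiz and Nfkbid were called under 0 of them, and Nfkbie and Bcl3 under 4. These alternatives are not independent of each other. The sex covariate in effect repeats the fit without Control 3, and the lane covariate rests on caIKK2EC 1 against the Controls. DESeq2 called 652 genes higher and 217 lower, among them Nfkbie (log2 fold change 1.04) and Bcl3 (0.61). With age as a covariate edgeR called 407 and 254, with Nfkbie at 1.03 and Bcl3 at 0.63. DESeq2 on the 7 female libraries, added after the data were seen, called 356 and 33, with Nfkbie at 0.94 and Bcl3 at 0.56. Leaving out 1 library at a time gave 0 to 230 edgeR calls higher and 0 to 129 lower, the highest both without caIKK2EC 2. Over these the log2 fold change ranged from 0.93 to 1.13 for Nfkbie, 0.55 to 0.72 for Bcl3, 0.37 to 0.52 for Nfkbia, 0.10 to 0.18 for Nfkbib, 0.37 to 0.87 for Nfkbiz and 0.43 to 0.85 for Nfkbid. Nfkbiz was at 0.21 within lane 7. The cause of these changes was not tested. The log2 ratio differences that changed sign were those of Nfkbia over Nfkbiz (-0.425 to 0.0607), Nfkbiz over Bcl3 (-0.187 to 0.292) and Nfkbid over Bcl3 (-0.122 to 0.335), each of them changed by leaving out Control 3. With the replicate number as a block, edgeR called 0 genes, and Nfkbie was at 0.92 and Bcl3 at 0.59 (adjusted p = 0.512 and 0.519). Same-numbered libraries correlated at 0.335, 0.0989 and 0.0968 in their deviations from the group means, not all above 0.1, and the numbers are not taken to pair the mice. With 3 Controls, the two-sided exact test used here, which doubles the smaller tail, cannot go under 0.0357.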

Other observations

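The 2 inducible classical inhibitors did not rank the caIKK2EC libraries alike. Nfkbia was highest in caIKK2EC 3 (241.2 CPM) and lowest in caIKK2EC 4 and 5 (170.6 and 167.8 CPM), while Nfkbie was highest in caIKK2EC 4 (31.7 CPM) and at 23.1 CPM in caIKK2EC 3. The log2 ratio of Nfkbia to Nfkbie counts thus ran from 2.43, in caIKK2EC 4, to 3.38 within caIKK2EC libraries. That range over 5 libraries was wider than the 3.44 to 3.82 of the 3 Controls, but a range tends to widen with more values. Nfkbid showed the opposite picture relative to Nfkbib, with a log2 ratio of -2.07 to -1.99 over the 5 caIKK2EC libraries and of -3.22 to -2.33 over the 3 Controls, where Control 3 gave the lowest value.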
